A study of Mus musculus with 8 samples.

Results

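The comparison of HET with WT LT-HSCs asks how the transcriptome of fetal liver stem cells looked when 1 of the 2 copies of *Nfkbia*, the gene of IκBα, was disrupted. LT-HSCs are those hematopoietic stem cells that can rebuild the blood for a long time after transplantation. Each sample was a bulk RNA-seq library from 500 LT-HSCs of 1 mouse embryo at E14.5, sorted from fetal liver as Lineage-, Sca1+, cKit+, CD48- and CD150+ cells. 6 of the 8 samples of the series were used, 3 WT and 3 HET, and the 2 KO samples were left out apart from the check of *Nfkbia*. Genes with at least 10 reads summed over the 6 samples were kept, which left 19542 of 55487 genes, 14213 of them protein-coding.

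The WT embryos carried both intact copies of *Nfkbia*, and the HET embryos carried 1 copy of the targeted Nfkbia tm1Bal allele. This allele is a germline disruption, so that every cell of a HET embryo had it, and no treatment is named. Embryos came from matings of HET mice, and according to the methods the HET line was also crossed with Gfi1:tomato reporter mice, without saying which embryos carried the reporter. WT1, WT2 and HET1 were male and labelled as total RNA, whereas WT3, HET2 and HET3 were female and labelled as polyA RNA. Sex and RNA label therefore coincided in all 6 samples and cannot be told apart. The methods name 1 extraction and library protocol for all samples. Each group held 3 embryos, so that a permutation test of 3 against 3 samples can give no two-sided p below 0.1.

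IκBα is the inhibitor that holds NF-κB dimers in the cytoplasm. When inflammatory receptors activate the IκB kinase, IκBα is phosphorylated and degraded, the dimers enter the nucleus, and *Nfkbia* itself is among the genes they switch on, which closes a negative feedback loop. In stem cells, NF-κB and interferon signaling are known from the emergence of HSCs in the embryo and from the response of HSCs to inflammation.

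*Nfkbia* (ENSMUSG00000021025) lies on the minus strand of chromosome 12, from base 55489410 to 55492647 of GRCm38. Its level was 44.2, 66.1 and 22.8 CPM (counts scaled to the same library size) in WT1, WT2 and WT3, and 22.7, 28.2 and 14 CPM in HET1, HET2 and HET3. Each HET sample was below the WT sample of the same number, but WT3 was below HET2 and almost level with HET1, so that the groups overlapped. The WT mean was 44.4 ± 21.6 CPM (SD, n = 3) and the HET mean 21.7 ± 7.15 CPM (SD, n = 3), which is 48.9% of WT. With sex and genotype in the model, the log2 fold change was -0.70 ± 0.44 (SE; 95% interval -1.75 to 0.36), with an adjusted p of 0.919 by edgeR's quasi-likelihood test with Benjamini-Hochberg adjustment over all 19542 genes. In reads, the WT samples held 968, 1621 and 450 reads of *Nfkbia* and the HET samples 439, 574 and 243, against 1 and 0 reads in the 2 KO samples.

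The HET level was 41.3% of WT among the male samples and 92.5% among the female samples. In a fit of the 3 male samples alone, with HET1 as the only HET sample, the log2 fold change was -1.30. In the female samples alone, with WT3 as the only WT sample, it was -0.11. Neither fit holds the spread between embryos of the group with 1 sample. The difference of the HET effect between the labels was itself not called (log2 difference -1.17, unadjusted p = 0.159 by edgeR's quasi-likelihood test). Over the pairs of samples with the same replicate number the differences were -0.95, -1.22 and -0.70 on the log2 scale, and the fit with the replicate number as a block gave -0.96 ± 0.20 (SE), with an adjusted p of 0.0922 by edgeR's quasi-likelihood test with Benjamini-Hochberg adjustment.

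**Figure D1:**
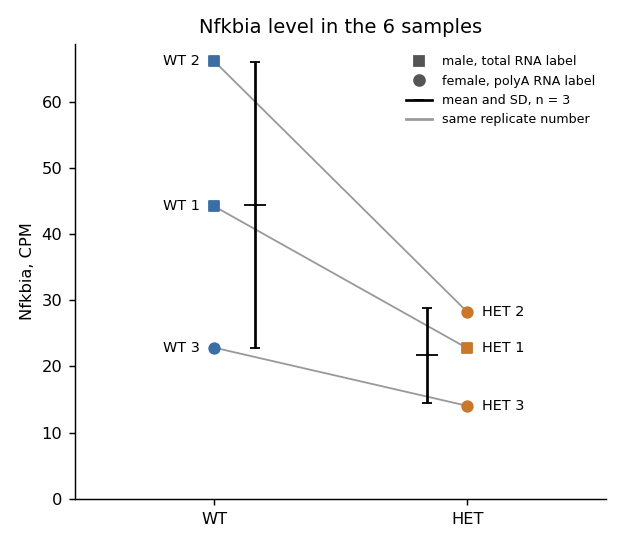
Level of *Nfkbia* in CPM in the 3 WT and 3 HET samples. Points are samples, lines join samples of the same replicate number, and bars give the mean ± SD of each group. All 3 lines go down from WT to HET, from 44.2 to 22.7, from 66.1 to 28.2 and from 22.8 to 14 CPM, and the ranges of the groups overlap.

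The region just before the start of *Nfkbia* is shown because it is the piece of DNA through which NF-κB is known to act back on its inhibitor. It covers the 250 bases before the transcription start in RefSeq, chr12:55492648-55492897 of GRCm38.p6, written 5′ to 3′ on the strand of the gene, which is the minus strand. The NF-κB motif GGGNNTTTCC was searched on both strands, and the capitals mark its match on the opposite strand, from 29 to 20 bases before the start.
Nfkbia promoter: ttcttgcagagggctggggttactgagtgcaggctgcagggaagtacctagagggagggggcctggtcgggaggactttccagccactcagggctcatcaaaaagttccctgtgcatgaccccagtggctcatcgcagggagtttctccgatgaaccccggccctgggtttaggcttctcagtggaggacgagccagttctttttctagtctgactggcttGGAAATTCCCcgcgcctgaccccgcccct
The motif was present in 464 of 32851 promoters of this kind (1.41%), in 217 of 15470 promoters of genes kept here (1.4%) and in 18 of 205 promoters of the Hallmark list of TNF-α signaling via NF-κB (8.78%). A match is a run of letters and not a measured binding site.

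The neighbours of *Nfkbia* were read because the targeted allele lies among them. Of 25 genes kept within 1 Mb, 15 were higher and 10 lower in HET, with a median log2 fold change of 0.08 against 0.007 over all genes. At an unadjusted p under 0.05, 1 of them was higher, which was *Baz1a*, a subunit of chromatin remodeling complexes. Its level was 71.8, 67.1 and 191 CPM in WT1, WT2 and WT3 and 148, 188 and 227 CPM in HET1, HET2 and HET3. WT3 lay above HET1 and HET2, so that the groups overlapped.

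The libraries held between 19394401 and 21720972 counted reads, and 3 reads, the smallest level that was read as detected, corresponded to 0.122 to 0.173 CPM. These limits cover counting error only. Genes of the Y chromosome and *Xist* matched the labelled sex in all 6 samples. The samples stood apart from each other along 1 axis that did not follow genotype. The first principal component of all kept genes held 61.6% of the variance and placed WT1 at -118 and WT2 at -124, HET1 at -15.7 and HET2 at 19.7, and WT3 at 95.4 and HET3 at 143. The male samples, labelled total RNA, thus had negative scores, and the female samples, labelled polyA RNA, had positive scores. The summed level of the 16 LT-HSC markers ordered the samples in the same way. It was 2994, 3046 and 407 CPM in WT1, WT2 and WT3 and 1107, 873 and 274 CPM in HET1, HET2 and HET3. WT3 and HET3 thus carried the label LT-HSC with several defining markers low. *Ly6a*, which encodes Sca1, was at 61.2, 75.3 and 4.87 CPM in WT1, WT2 and WT3 and at 19.4, 13.7 and 0 CPM in HET1, HET2 and HET3. *Kit*, the receptor of stem cell factor, was kept in all of them, with 166, 207 and 144 CPM in the WT samples and 132, 161 and 166 CPM in the HET samples. *Klf1* and *Gata1*, transcription factors of the red cell lineage, went the other way. The level of *Klf1* was 111, 83.3 and 1013 CPM in WT1, WT2 and WT3 and 712, 917 and 1196 CPM in HET1, HET2 and HET3, and *Gata1* ran from 50.4 CPM in WT1 to 416 CPM in HET3. In bulk samples like these, fewer cells of a type and less RNA per cell cannot be told apart. These 4 genes were picked with their values known.

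**Figure D2:**
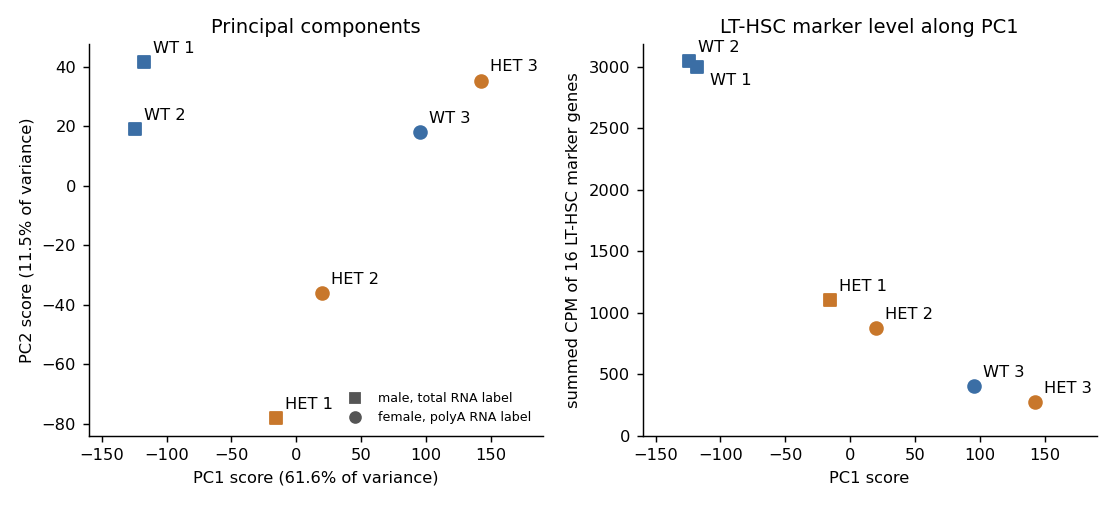
Left, principal components 1 (61.6% of the variance) and 2 (11.5%) of log2 CPM of the 6 samples. Right, the summed CPM of the 16 LT-HSC markers against component 1, with squares for male and circles for female samples. WT1 and WT2 lie at one end, HET1 and HET2 in the middle and WT3 and HET3 at the other end, and the marker sum runs in that order from 3046 to 274 CPM.

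With sex and genotype in the model, no gene was called between HET and WT at an adjusted p under 0.05 and a change of more than 1 on the log2 scale in either direction, which is 0% of 19542 genes. The lowest adjusted p was 0.919 by edgeR's quasi-likelihood test with Benjamini-Hochberg adjustment. At an unadjusted p under 0.05, 754 genes were found, 373 higher (1.91%) and 381 lower (1.95%) in HET, and with an absolute log2 fold change over 1 there were 194 higher (0.993%) and 292 lower (1.49%). DESeq2 on the same samples and model called 52 genes (0.266%), 22 higher and 30 lower, of which 14 had a mean of at least 5 CPM. Among the others were genes with reads in 1 sample only, such as *Cd209b* and *C9* in WT3 and *Krt77* and *Phex* in HET1. For 819 genes (4.19%) all 3 HET samples lay above all 3 WT samples, and for 967 (4.95%) below. Within both labels, HET lay above WT for 1880 genes (9.62%) and below for 1952 (9.99%).

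With the replicate number as a block, which compares each HET sample with the WT sample of its number, edgeR called 230 genes. Of these, 3 were higher in HET (0.0154%) and 227 were lower (1.16%). HET was above WT in all 3 pairs for 3836 genes (19.6%) and below in all 3 for 4349 genes (22.3%). All of the 227 lower genes were lower in each pair. In pair 2, WT2 was male and HET2 female. Without pair 2 the block fit called 0 genes, with a lowest adjusted p of 0.055 by edgeR's quasi-likelihood test. Without pair 1 it called 351, without pair 3 it called 2481, and with sex added to the block it called 0. The choice of genes named from this fit alone was made with their values known.

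Between male and female samples, 4629 genes had an unadjusted p under 0.05 by edgeR's quasi-likelihood test, against 754 between HET and WT. Of these, 2 were called (0.0102%), both higher in the male samples. In the male samples alone 1833 genes were called between HET1 and the 2 WT samples, 574 higher and 1259 lower, and in the female samples alone none was. With 1 sample in an arm, these fits assume that HET1, or WT3, varies like the other samples. The HET effect was not called as different between the labels for any gene (0%), with 2133 genes at an unadjusted p under 0.05 by edgeR's quasi-likelihood test. DESeq2 gave 411 genes at an adjusted p under 0.05, and 362 of them also differed by more than 1 on the log2 scale. The male and the female HET-minus-WT differences did not run together across genes, with a Pearson correlation of -0.06 over 19542 genes, which are not independent of each other. HET3 and HET2, which share genotype and label, differed by more than 2-fold for 5295 genes. The mean of both differed from WT3 by that much for 3764. The male samples went the other way, with 3244 genes between WT2 and WT1 and 5831 between HET1 and their mean. A mean of 2 samples varies less than 1 sample, so these counts are not like for like.

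Among the members of the IκB family, none passed the test in either direction. *Nfkbib*, the gene of IκBβ, was at 60.1, 59.0 and 116 CPM in WT1, WT2 and WT3 and at 95.1, 99.0 and 123 CPM in HET1, HET2 and HET3 (log2 fold change 0.30 ± 0.21, SE). WT3 lay with the HET samples. *Nfkbie*, the gene of IκBε, was at 28.7, 28.5 and 5.74 CPM in the WT samples and at 11.9, 8.16 and 1.97 CPM in the HET samples. Every HET sample was below its WT partner, and the groups overlapped through WT3. Its log2 fold change was -0.73 ± 0.62 (SE), and in the block fit -1.54 with an adjusted p of 0.0506 by edgeR's quasi-likelihood test with Benjamini-Hochberg adjustment. The nuclear members *Bcl3*, *Nfkbid* and *Nfkbiz* had log2 fold changes of 0.16, 0.11 and 0.02, and *Nfkbil1* one of 0.09, with all 4 changing sign under at least 1 other model.

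The 5 NF-κB subunits were not called either. *Rela*, the gene of p65, had the smallest SE of them, with 129, 111 and 119 CPM in WT1, WT2 and WT3 and 103, 109 and 125 CPM in HET1, HET2 and HET3. *Nfkb1*, the gene of p105 and p50, was at 156, 148 and 90.3 CPM in the WT samples and at 99.5, 97.7 and 115 CPM in the HET samples. Its highest values were in WT1 and WT2 and its lowest in WT3, so that the HET samples lay between WT samples. *Relb*, a subunit of the non-canonical pathway, was at 13.6, 10.2 and 1.98 CPM in the WT samples and at 4.04, 4.13 and 1.5 CPM in the HET samples. The log2 fold changes of *Rela*, *Nfkb1*, *Relb*, *Nfkb2* and *Rel* were -0.12, -0.19, -0.54, -0.08 and 0.44, with SEs from 0.15 to 1.20.

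Upstream of NF-κB, 14 genes of the IκB kinase complex and its activating kinases were centred on a log2 fold change of -0.095 (median), with 6 higher and 8 lower in HET and none at an unadjusted p under 0.05. *Map3k8*, the kinase Tpl2, was called lower in the block fit, with 13.9, 14.9 and 2.44 CPM in WT1, WT2 and WT3 and 2.44, 2.80 and 0.289 CPM in HET1, HET2 and HET3. *Chuk*, the gene of IKKα, was at 49.2, 57.3 and 89.7 CPM in the WT samples and at 85.9, 89.6 and 109 CPM in the HET samples. In both genes WT3 overlapped the HET samples. The TRAF adaptors (11 genes) had a median of -0.07 and the ubiquitin regulators (13 genes) one of 0.03. *Birc3*, the ubiquitin ligase cIAP2, was the TRAF list's only member at an unadjusted p under 0.05, at 33.2, 28.8 and 18.1 CPM in the WT samples and 20.8, 10.2 and 13.6 CPM in the HET samples.

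The list of receptors that feed the pathway, with the adaptors *Myd88* and *Ticam1* and the kinases *Irak1* and *Irak4*, leaned lower in HET. Of 19 listed genes 17 were kept, and 13 of these had a log2 fold change below 0. The median was -0.24, and it was 0.11 without HET1, -0.90 without HET2 and -0.78 without WT3. At an unadjusted p under 0.05, 2 were lower and none was higher, against 1.95% and 1.91% of all genes kept. *Tlr4*, the receptor of bacterial lipopolysaccharide, was at 12.3, 10.1 and 9.19 CPM in WT1, WT2 and WT3 and at 3.52, 1.23 and 0.173 CPM in HET1, HET2 and HET3. All 3 HET samples were below all 3 WT samples. Its log2 fold change was -2.65 ± 0.79 (SE), with an unadjusted p of 0.0144 and an adjusted p of 0.919 by edgeR's quasi-likelihood test with Benjamini-Hochberg adjustment. *Tlr2*, the receptor of bacterial lipoproteins, was at 23.9, 21.7 and 4.82 CPM in the WT samples and at 10.5, 5.26 and 2.49 CPM in the HET samples, so that WT3 lay below HET1 and HET2. Macrophages also express *Tlr4*, and the macrophage markers had a median difference of 0.90 in the male and -2.39 in the female samples, whereas *Tlr4* was lower in both. Their part in this result was not tested.

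The targets of NF-κB showed no common direction. Of 194 genes of the Hallmark list of TNF-α signaling via NF-κB, a public list that the study also used, 174 were kept. In HET 85 were higher and 89 lower, with a median log2 fold change of -0.01 against 0.007 over all genes. At an unadjusted p under 0.05, 7 were higher and 5 lower, and 6 were called lower in the block fit. Over all genes kept these shares were 1.91%, 1.95% and 1.16%. The study's own lists of NF-κB molecules (10 genes), pathway genes (28) and inflammation genes (19) had medians of 0.002, 0.01 and -0.21, with 1 gene higher at an unadjusted p under 0.05 in the inflammation list. Without HET1 the Hallmark median was 0.23, and without WT3 it was -0.47. The median of the inflammation list was 0.25 and -0.87 in these settings. *Plpp3*, a lipid phosphatase of the Hallmark list, was at 8.08, 8.15 and 1.83 CPM in WT1, WT2 and WT3 and at 1.66, 0.836 and 0.347 CPM in HET1, HET2 and HET3. All HET samples were below all WT samples, with WT3 and HET1 close together. *Tnfaip2*, a TNF-induced gene of the same list, was at 20.5, 24.3 and 242 CPM in the WT samples and at 157, 212 and 280 CPM in the HET samples. WT3 lay above 2 of the HET samples.

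Interferon-stimulated genes were lower in HET in most members, with none called in the fit with sex and genotype and 5 called lower in the block fit. Of 41 genes, 31 had a log2 fold change below 0 and 1 had an unadjusted p under 0.05, with a median of -0.47. Without HET1 the median was 0.50, without HET2 -1.28 and without WT3 -1.25. In the male samples the median difference was -1.19 and in the female samples -0.09. Over all genes kept, 22.3% were lower in all 3 pairs and 1.16% were called lower in the block fit. Of the 41 interferon-stimulated genes, 29 were lower in all 3 pairs. Their summed level was 2774, 2638 and 585 CPM in WT1, WT2 and WT3 and 1216, 976 and 439 CPM in HET1, HET2 and HET3. WT3 was below HET1 and HET2, as it was for the LT-HSC markers, whose part in this result was not tested. *Irf1*, a transcription factor of the interferon response, was at 81.0, 68.0 and 5.13 CPM in the WT samples and at 24.7, 10.5 and 1.73 CPM in the HET samples. It was called lower in the block fit (log2 fold change -2.02, adjusted p = 0.0319 by edgeR's quasi-likelihood test), as were *Ddx58*, the gene of the RNA sensor RIG-I (-2.50), and *Ifitm1*, which restricts virus entry (-2.37). *Ifitm1* was at 742, 662 and 40.1 CPM in WT1, WT2 and WT3 and at 212, 137 and 4.57 CPM in HET1, HET2 and HET3. *Mx2*, an interferon-induced GTPase, was lower in every HET than in every WT sample but lay below the 3-read limit in HET2 and HET3, with 4.56, 1.67 and 0.457 CPM in the WT samples and 0.207, 0.0984 and 0.0578 CPM in the HET samples. The 19 genes of antigen presentation on MHC class I had a median of -0.22, with 16 below 0, and of 0.34 without HET1 and -0.86 without WT3.

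**Figure D3:**
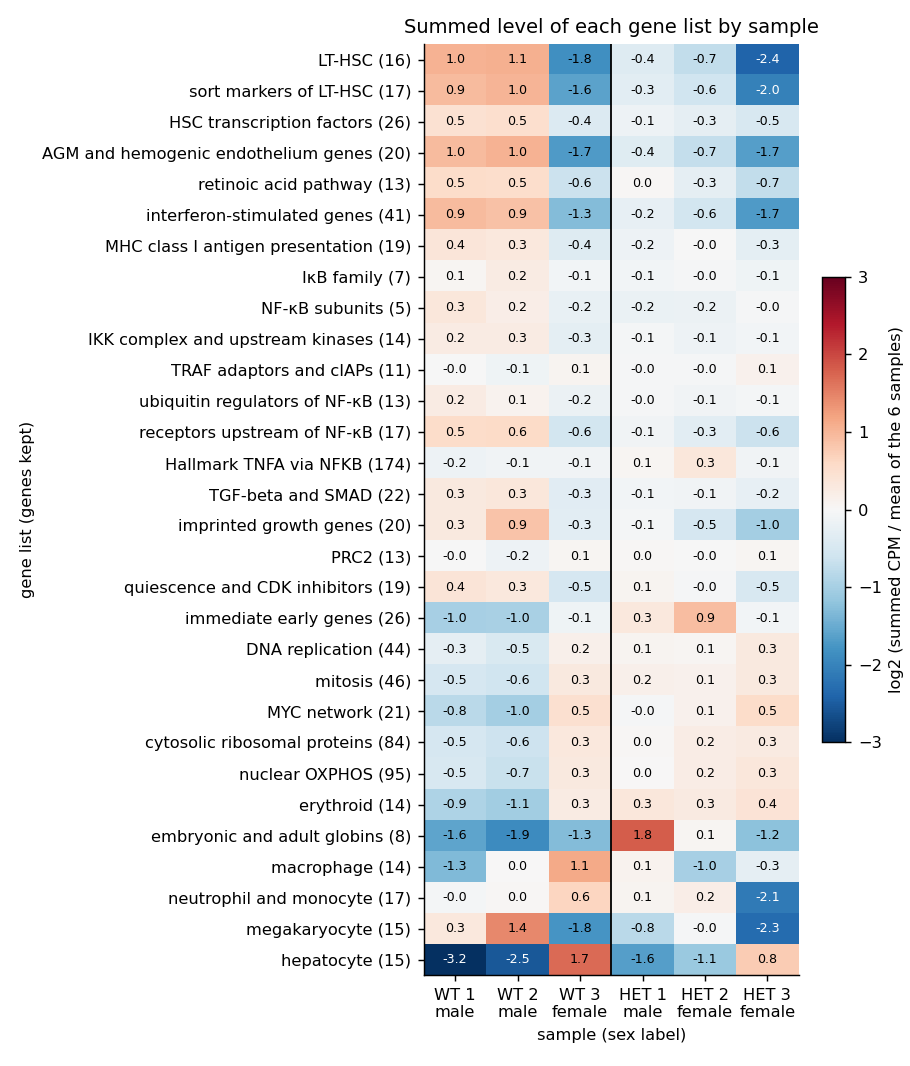
Summed CPM of 30 gene lists in each sample, as the log2 ratio to the mean of the 6 samples. The LT-HSC, sort marker and interferon lists are high in WT1 and WT2, intermediate in HET1 and HET2 and low in WT3 and HET3, whereas the MYC network and mitosis lists run the opposite way.

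LT-HSC identity genes were lower in HET in every pair for most members, while the fit with sex and genotype called none. Of the 16 LT-HSC markers all 16 had a log2 fold change below 0, with a median of -0.35 (-1.65 in the male and -0.17 in the female samples). None had an unadjusted p under 0.05. In all 3 pairs 14 were lower, against 22.3% of all genes kept, and 9 were called lower in the block fit, against 1.16%. The median turned to 0.56 without HET1, and it was -1.77 without HET2 and -1.65 without WT3. *Procr*, the gene of the HSC surface protein EPCR, was at 165, 161 and 8.27 CPM in WT1, WT2 and WT3 and at 35.3, 29.9 and 1.10 CPM in HET1, HET2 and HET3. Each HET sample was below its partner, and WT3 was below HET1 and HET2.

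The transcription factors *Hlf*, *Mecom*, *Mycn* and *Meis1*, which are known to maintain HSCs, had the same order of samples. *Hlf* was at 225, 266 and 15.4 CPM in WT1, WT2 and WT3 and at 70.6, 68.8 and 2.95 CPM in HET1, HET2 and HET3. *Mecom* was at 232, 195 and 9.80 CPM in the WT samples and at 63.2, 47.7 and 1.33 CPM in the HET samples. In both, WT3 lay between HET2 and HET3. The block fit gave *Hlf* a log2 fold change of -1.98 ± 0.20 (SE) with an adjusted p of 0.0215 by edgeR's quasi-likelihood test, and the fit with sex and genotype gave -0.31 ± 1.45 (SE). *Mycn* and *Meis1* were called in the block fit with -2.55 and -1.68, and in the female samples alone the sign of all 4 factors turned. Of 26 HSC transcription factors in all, 18 were lower in all 3 pairs, against 22.3% of all genes kept. Their median log2 fold change was -0.27 in the fit with sex (0.33 without HET1, -1.16 without HET2 and -1.02 without WT3). In the block fit 9 were called lower, against 1.16% of all genes kept. In all 3 pairs 4 were higher, against 19.6%. *Tal1*, a factor shared by HSCs and red cell precursors, was among those higher, with 48.4, 52.0 and 112 CPM in the WT samples and 78.8, 121 and 124 CPM in the HET samples.

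**Figure D4:**
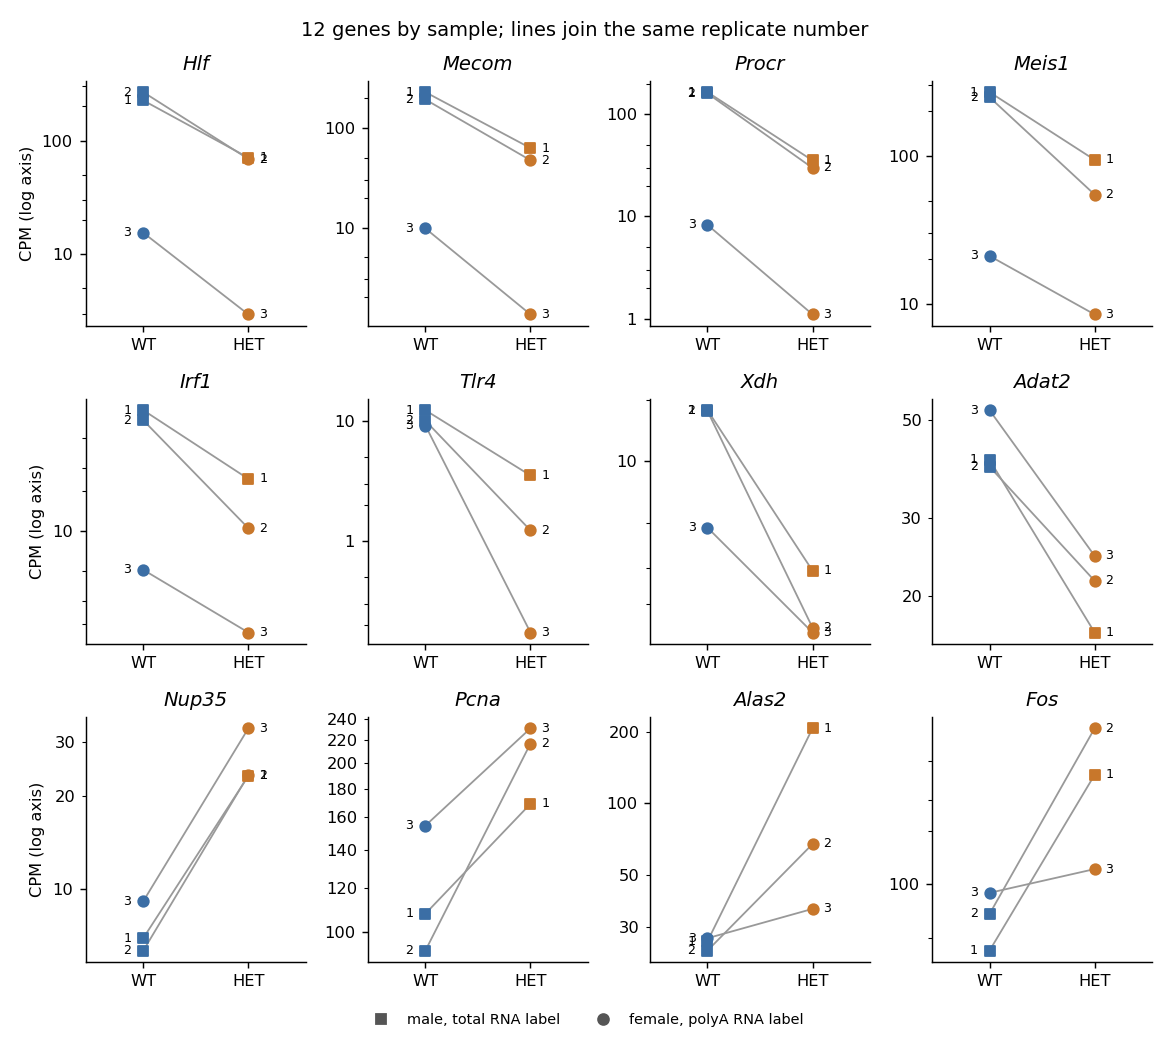
CPM of 12 genes in the 3 WT and 3 HET samples on a log axis, with lines joining samples of the same replicate number, squares for male and circles for female samples. *Hlf*, *Mecom*, *Procr*, *Meis1* and *Irf1* go down in all 3 pairs from very different WT levels, whereas *Adat2*, *Nup35*, *Tlr4* and others separate all HET from all WT samples.

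The genes of the sort gate and of earlier stem cell programs showed a like order. Of 17 sort markers 13 had a log2 fold change below 0, and their summed level was 2184, 2310 and 376 CPM in WT1, WT2 and WT3 and 912, 751 and 278 CPM in HET1, HET2 and HET3. *Slamf1*, the gene of CD150, was at 121, 116 and 19.3 CPM in the WT samples and at 24.3, 22.1 and 12.7 CPM in the HET samples. The 2 high samples were WT1 and WT2. The list of HSC emergence in the aorta-gonad-mesonephros region (20 genes) had a median of -0.47, with 16 below 0. In the block fit 5 were called lower, against 1.16% of all genes kept. The median of this list was -1.51 in the male and -0.16 in the female samples. Without HET1 it was 0.71, without HET2 -1.93 and without WT3 -1.54. For the sort markers the median was -0.25, and 0.80, -1.71 and -1.56 in these settings. *Dll4*, a Notch ligand of that list, was at 6.25, 7.30 and 0.914 CPM in the WT samples and at 1.24, 0.738 and 0.405 CPM in the HET samples. WT3 lay between HET1 and HET2.

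Retinoic acid genes and Polycomb genes did not lean either way in the fit with sex and genotype, with medians of -0.006 and 0.002 over 13 genes each. The retinoic acid median was -0.40 in the male and 0.16 in the female samples, 0.21 without HET1 and -0.40 without WT3. Its summed level was 1045, 1040 and 458 CPM in WT1, WT2 and WT3 and 736, 592 and 428 CPM in HET1, HET2 and HET3. *Dhrs3* of this list was called lower in the block fit, with a log2 fold change of -1.77. *Rarg*, a retinoic acid receptor, was at 5.29, 5.46 and 1.12 CPM in WT1, WT2 and WT3 and at 2.07, 0.541 and 0.347 CPM in HET1, HET2 and HET3, with an unadjusted p of 0.0374 by edgeR's quasi-likelihood test. The PRC2 subunit *Suz12* and its partner *Jarid2* had log2 fold changes of 0.26 and -0.34. TGF-β signaling (22 genes) had a median of 0.006. The receptors *Acvr2a* and *Tgfbr1* were its 2 genes lower at an unadjusted p under 0.05, against 1.95% of all genes kept. *Tgfbr1* was at 32.7, 33.9 and 22.3 CPM in the WT samples and at 19.7, 18.7 and 14.1 CPM in the HET samples, and all HET samples were below all WT samples.

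Imprinted growth genes were lower in 17 of 20 members with a median of -0.50. This median was -0.15 without HET1, -0.97 without HET2, -1.08 without WT3 and -1.14 in the block fit. *Meg3*, a maternally expressed long non-coding RNA, stood out among them. Its level was 9.95, 17.4 and 14.52 CPM in WT1, WT2 and WT3 and 3.26, 1.13 and 0.578 CPM in HET1, HET2 and HET3. All HET samples were below all WT samples, and WT3 was as high as the other WT samples. The log2 fold change was -3.05 ± 0.60 (SE). By edgeR's quasi-likelihood test the unadjusted p was 0.00214 and the adjusted p 0.919, whereas DESeq2 gave an adjusted p of 0.00233. *Rian*, a neighbouring transcript of the same imprinted cluster, was at 3.19, 8.28 and 1.32 CPM in the WT samples and at 1.66, 0.393 and 0.636 CPM in the HET samples, so that HET1 lay above WT3. In the LIN28B list of fetal identity (11 genes, median 0.13), *Lin28b* itself had a log2 fold change of 0.50 and its target *Igf2bp2* one of -0.50.

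Red cell genes had positive log2 fold changes in HET, with WT3 level with the HET samples in their summed level. The erythroid markers summed to 2245, 2054 and 5069 CPM in WT1, WT2 and WT3 and to 5419, 5091 and 5653 CPM in HET1, HET2 and HET3. All 14 erythroid markers had a log2 fold change above 0, with a median of 1.48 and 10 at an unadjusted p under 0.05. In all 3 pairs 11 were higher. Over all genes kept, 1.91% were higher at that p and 19.6% were higher in all 3 pairs. Of 10 listed globins 8 were kept, and 7 of these were higher with a median of 2.24. HET1 held the highest globin level, and the globins summed to 1200, 967 and 1444 CPM in the WT samples and to 12600, 3747 and 1532 CPM in the HET samples. The median difference of the erythroid markers was 2.75 in the male samples and 0.23 in the female samples. Without HET1 the medians of the erythroid markers and the globins were 0.26 and 0.84, and without WT3 they were 2.76 and 3.23. *Alas2*, the first enzyme of heme synthesis in red cells, was at 26.1, 23.9 and 26.9 CPM in WT1, WT2 and WT3 and at 207, 67.3 and 35.8 CPM in HET1, HET2 and HET3. All HET samples were above all WT samples, with HET3 close to them, and the log2 fold change was 2.00 ± 0.50 (SE; unadjusted p = 0.00661 by edgeR's quasi-likelihood test). *Slc4a1*, the anion exchanger of the red cell membrane, was at 6.98, 10.8 and 12.6 CPM in the WT samples and at 87.2, 36.8 and 13.1 CPM in the HET samples. The adult α globin *Hba-a1* was at 200, 189 and 344 CPM in the WT samples and at 3579, 1037 and 311 CPM in the HET samples, so that HET3 lay below WT3. The α globin genes are near-identical copies, and unique alignment makes their counts uncertain. Whether red cell RNA from outside the sorted cells contributed was not tested.

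Genes of DNA replication and mitosis leaned slightly higher in HET, in the male samples more than in the female ones. Of 44 replication genes 40 had a log2 fold change above 0 with a median of 0.26, and of 46 mitosis genes 45 did with a median of 0.29, against 0.007 over all genes. These medians were 0.51 and 0.63 in the male samples and 0.02 and -0.11 in the female samples. Without HET1 they were 0.02 and -0.097, and without WT3 they were 0.50 and 0.63. *Pcna*, the sliding clamp of DNA polymerase, was at 108, 92.7 and 155 CPM in WT1, WT2 and WT3 and at 169, 217 and 231 CPM in HET1, HET2 and HET3. All HET samples were above all WT samples, with a log2 fold change of 0.64 ± 0.14 (SE; unadjusted p = 0.00399 by edgeR's quasi-likelihood test). *Mki67*, the gene of the proliferation antigen Ki-67, was at 144, 173 and 238 CPM in the WT samples and at 288, 261 and 249 CPM in the HET samples. The groups did not overlap, and WT3 lay close to HET3.

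Lists of cell growth had like values. The MYC network (21 genes), cytosolic ribosomal proteins (84), mitochondrial ribosomal proteins (78) and oxidative phosphorylation (95) had medians of 0.31, 0.29, 0.28 and 0.28, with 15, 78, 77 and 86 members above 0. In the male samples the medians were 0.75, 0.60, 0.60 and 0.62, and in the female samples -0.11, -0.024, -0.065 and -0.056. Without HET1 they were -0.11, -0.029, -0.071 and -0.060, and without WT3 0.76, 0.60, 0.60 and 0.62. The summed level of the MYC network was 5411, 4695 and 13320 CPM in WT1, WT2 and WT3 and 9348, 10450 and 13920 CPM in HET1, HET2 and HET3. It was high where the LT-HSC markers were low. *Odc1*, the first enzyme of polyamine synthesis, was at 103, 80.2 and 249 CPM in the WT samples and at 195, 241 and 311 CPM in the HET samples. Scaled by library size only, without TMM, the median over all genes moved by -0.10 on the log2 scale. The cause of the medians of these lists was not tested. The list of quiescence and CDK inhibitor genes (19 genes) also named *Cdk6* and D cyclins, so its median of -0.04 mixes members of opposite roles. Its member *Rb1*, the retinoblastoma gene, was at 58.5 CPM in HET1 and between 26.4 and 37.5 CPM in the other 5 samples. Glycolysis genes (22) had a median of 0.06. *Aldoc*, an aldolase, was one of 2 of them called lower in the block fit, against 1.16% of all genes kept.

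**Figure D5:**
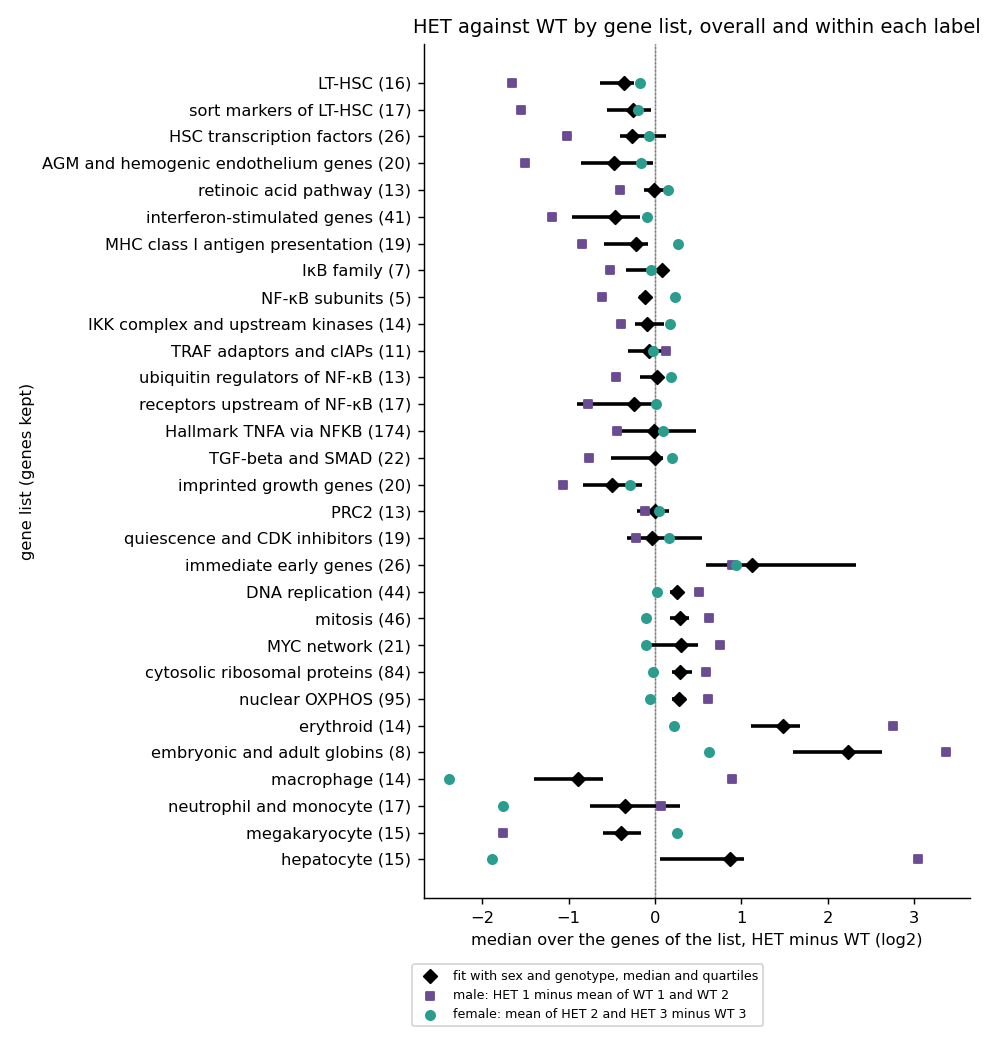
Median log2 fold change of HET against WT for each gene list, with the quartiles of its members, and the medians of the differences within the male and within the female samples. The erythroid, globin and immediate early lists lie highest (1.48, 2.24 and 1.13), and for most lists the male median lies farther from 0 than the female one.

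Immediate early genes, which are switched on within minutes of a stimulus, were higher in HET1 and HET2. Of 26 genes 25 had a log2 fold change above 0 with a median of 1.13. Of these, 6 were higher at an unadjusted p under 0.05, against 1.91% of all genes kept. The median was 0.48 without HET2 and 1.75 without HET1. *Fos*, a subunit of the AP-1 transcription factor, was at 42.2, 68.0 and 89.6 CPM in WT1, WT2 and WT3 and at 419, 769 and 122 CPM in HET1, HET2 and HET3. All HET samples were above all WT samples, with HET3 near WT3. Its log2 fold change was 2.62 ± 0.68 (SE). By edgeR's quasi-likelihood test the unadjusted p was 0.0077 and the adjusted p 0.919, whereas DESeq2 called it with an adjusted p of 0.0179. *Fosb*, *Egr1* and *Dusp1* shared the order of samples only in part. *Egr1*, a zinc finger factor, was at 4.79, 6.81 and 9.85 CPM in the WT samples and at 53.5, 57.0 and 5.03 CPM in the HET samples. HET3 was within the WT range for *Egr1*, as it was for *Dusp1*, a MAP kinase phosphatase. Over the pairs the list medians were 0.96, 1.37 and 0.08. *Hspa8*, a constitutive heat shock chaperone, was at 61.4, 136 and 575 CPM in the WT samples and at 399, 730 and 547 CPM in the HET samples, and the heat shock list (14 genes) had a median of 0.19.

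Among genes that separated HET from WT in both labels, with a mean of at least 5 CPM and an absolute log2 fold change over 1, the 10 with the lowest p in each direction were read one by one. They were selected by these values, so their levels are a description. The 10 higher genes had log2 fold changes from 1.04 to 1.72. *Nup35*, a component of the nuclear pore, was at 6.94, 6.32 and 9.14 CPM in WT1, WT2 and WT3 and at 23.3, 23.4 and 33.2 CPM in HET1, HET2 and HET3. It was the tightest of the higher genes across samples and was also called in the block fit (log2 fold change 1.83, adjusted p = 0.0269 by edgeR's quasi-likelihood test). *Ncapg2*, a subunit of condensin II that compacts mitotic chromosomes, was at 44.7, 49.2 and 49.5 CPM in the WT samples and at 112, 79.0 and 97.4 CPM in the HET samples. *Nek2*, a kinase of the centrosome, was at 29.9, 10.9 and 22.1 CPM in the WT samples and at 67.2, 69.8 and 59.3 CPM in the HET samples. For these 3 genes WT3 lay with the other WT samples.

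The other 7 included 3 genes of red cells, *Hemgn*, *Epb42* and *Sptb*. *Hemgn*, a nuclear regulator of blood cells, was at 58.7, 68.9 and 60.1 CPM in WT1, WT2 and WT3 and at 208, 136 and 82.3 CPM in HET1, HET2 and HET3. *Epb42* and *Sptb*, which encode the membrane skeleton proteins 4.2 and β spectrin, had log2 fold changes of 1.5 and 1.49. In all 3 genes HET1 was highest and HET3 lowest of the HET samples. The remaining 4 were *Slc12a4*, a potassium chloride cotransporter (1.56), *Tmem56* (1.37), *Rgcc*, a regulator of the cell cycle (1.16), and *Fam210b*, a mitochondrial protein (1.04).

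The 10 lower genes had log2 fold changes from -2.14 to -1.02. *Adat2*, the catalytic subunit of a tRNA adenosine deaminase, was at 40.7, 39.3 and 52.6 CPM in WT1, WT2 and WT3 and at 16.6, 21.7 and 24.7 CPM in HET1, HET2 and HET3. The groups were far apart, and the log2 fold change was -1.23 ± 0.18 (SE). *Xdh*, the xanthine dehydrogenase of purine breakdown, was at 17.8, 17.6 and 4.72 CPM in the WT samples and at 2.90, 1.52 and 1.45 CPM in the HET samples. *Cd300a*, an inhibitory receptor of myeloid cells, was at 22.7, 29.0 and 18.5 CPM in the WT samples and at 10.9, 5.31 and 5.61 CPM in the HET samples. *Abca1*, the exporter of cholesterol, was at 22.3, 30.8 and 13.1 CPM in the WT samples and at 8.39, 6.20 and 6.01 CPM in the HET samples. In each of these genes all HET samples were below all WT samples, and for *Xdh*, *Cd300a* and *Abca1* WT3 was the lowest of the WT samples.

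*Zfp386*, a zinc finger gene, was at 101, 73.5 and 41.1 CPM in WT1, WT2 and WT3 and at 25.7, 20.6 and 22.2 CPM in HET1, HET2 and HET3, and was also called in the block fit with a log2 fold change of -1.57. *Abcg3*, a transporter gene, and *Fcgrt*, the heavy chain of the neonatal Fc receptor, were called there too, with -2.13 and -1.50, although HET1 lay above WT3 in both. *Dpp4*, a surface peptidase, *Tmem86a*, an enzyme of lysoplasmalogen breakdown, and *Zfp128* had log2 fold changes of -1.02, -1.68 and -1.62 in the fit with sex and were lower in all HET than in all WT samples. DESeq2 called 10 of these 20 genes, among them *Adat2*, *Nup35*, *Xdh* and *Cd300a*.

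The 227 genes called lower in the block fit were those with large differences between the labels. Their median CPM was 75.4, 72.4 and 7.01 in WT1, WT2 and WT3 and 24.8, 17.4 and 1.62 in HET1, HET2 and HET3. All 227 were higher in the male than in the female samples, with a median log2 difference of 2.30. Their median log2 fold change was -1.94 with the block and -0.54 with sex and genotype, where 14 of them had an unadjusted p under 0.05. Over the pairs the medians were -1.61, -2.0 and -1.99. Within both labels 23 of the 227 were lower in HET without overlap, and 8 were so over all samples. Over all genes kept, 9.99% were lower within both labels and 4.95% over all samples. The 3 genes called higher were *Nup35*, *Klhl12*, an adaptor of a ubiquitin ligase, and *Gm8116*, a processed pseudogene whose reads may be shared with its parent. *Klhl12* was at 23, 27.3 and 63.0 CPM in the WT samples and at 51.3, 55.2 and 113 CPM in the HET samples, with WT3 above HET1 and HET2.

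Markers of other cell types were measured beside these groups. Hepatocyte markers (15 genes) summed to 55.1, 86.0 and 1625 CPM in WT1, WT2 and WT3 and to 159, 230 and 843 CPM in HET1, HET2 and HET3. They were highest in WT3 and HET3. Macrophage markers (14 genes) summed to 136, 341 and 750 CPM in the WT samples and to 365, 172 and 281 CPM in the HET samples, with 12 of 14 below a log2 fold change of 0 (median -0.89, and 0.68 without WT3), a median of 0.90 in the male samples and one of -2.39 in the female samples. *Cd68*, a lysosomal protein of macrophages, was at 25.3, 34.2 and 36.3 CPM in the WT samples and at 19.2, 8.02 and 6.19 CPM in the HET samples. Neutrophil and monocyte markers (17 genes) summed to between 701 and 1133 CPM in 5 samples and to 167 CPM in HET3.

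Megakaryocyte markers (15 genes) summed to 929, 2050 and 221 CPM in WT1, WT2 and WT3 and to 428, 731 and 152 CPM in HET1, HET2 and HET3. *Ppbp*, a platelet chemokine, was one of 3 of them called lower in the block fit, against 1.16% of all genes kept. Endothelial markers (13 genes) went from 377 CPM in WT1 to 39.3 CPM in HET3 and placed WT1 and WT2 above HET1 and HET2, and these above WT3 and HET3, as the LT-HSC markers did. Lymphoid markers summed to between 6.94 and 117 CPM, with *Rag1*, *Cd3e*, *Cd8a* and *Ms4a1* at 0 reads in all samples, and stromal markers to between 5.94 and 14 CPM. The part of these cell types in the differences between HET and WT was not tested.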

How the data were processed

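The labels gave genotype, sex, replicate number and RNA molecule. Per the methods, LT-HSC RNA was made into cDNA by amplification and sequenced as single-end reads, trimmed with TrimGalore 0.6.6 and aligned with STAR 2.7.8 to GRCm38, Ensembl 102. The deposited values used are the authors' raw counts of uniquely aligned reads per gene. The strand column is not given in the sources used here, so overlapping and antisense genes are uncertain, and near-identical copies lose reads. The authors' second table, of log2 values corrected for sex, was not used.

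Genes with at least 10 reads over the 6 samples were kept, scaled by TMM and fitted with edgeR 4.0.16 in R 4.3.3 (legacy quasi-likelihood form, sex and genotype in the model, Benjamini-Hochberg adjustment over 19542 genes). Calls needed an adjusted p under 0.05 and a log2 fold change beyond 1 in either direction. Levels are CPM, and differences within labels or pairs are of log2 CPM with a prior count of 2. The alternative tool was DESeq2 1.42.0. The scripts were tested on simulated data.

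Samples of the same number deviated together from their group means (correlation 0.51, 0.378 and 0.72 for pairs 1, 2 and 3 over 12752 genes), although pair 2 mixes the labels and samples of different numbers also correlated, WT2 with HET1 at 0.599 and WT1 with HET2 at 0.35, so that the correlations do not set pair 1 apart from pair 2. The fit with the replicate block is given beside the main one. The pairing comes from the numbers in the labels. P-values cover the spread between 3 embryos a group.

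The comparison and the gene lists were chosen with earlier results of these data known, and the Hallmark, NF-κB and inflammation lists are those the study used. Named genes were *Nfkbia*, the IκB family and NF-κB subunits, up to 10 protein-coding genes in each direction with the lowest p among those with a mean of at least 5 CPM that were called or, failing that, had an unadjusted p under 0.05, a log2 fold change beyond 1 and HET beyond WT in both labels, the 3 members of each list with the lowest p and a mean of at least 1 CPM, sex genes, and genes within 1 Mb of *Nfkbia*. Other named genes were chosen after their values were seen. Promoter sequence and the start site are from RefSeq, GRCm38.p6. No set test was run. 1 marker gene is not reported here.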

Additional observations from a re-analysis of the deposited data

How the results depend on the processing

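The count of 0 genes between HET and WT was kept by the edgeR version 4 form, the RLE, upper quartile and library size normalizations, a minimum mean of 1 CPM, no sex covariate, all 8 samples in the fit, autosomal genes, female samples only and the replicate block with sex. It was 52 with DESeq2, 14 with apeglm shrinkage, 131 without the filter on low counts and 1833 in the male samples only. With the replicate block it was 230, and, chosen after seeing the data, 1329 with this block in DESeq2, 241 with RLE, 68 in the edgeR version 4 form, 351 without pair 1, 0 without pair 2 and 2481 without pair 3. Leaving out 1 sample at a time gave between 0 and 76 calls, the 76 without HET2. Between the labels, 2 calls became 1820 with DESeq2 and 0 among autosomal genes, and the difference of the HET effect gave 411 genes at an adjusted p under 0.05 with DESeq2, 362 of them also beyond a log2 difference of 1. The 3832 genes separated within both labels became 2525 at a mean of at least 1 CPM. *Nfkbia* was at -1.30 in the male samples only and between -1.28 and -0.11 when 1 sample was left out. The cause of these changes was not tested.

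Some log2 fold changes turned sign. With the female samples only they were -0.069 for *Nfkbib*, 0.24 for *Nfkb1*, 0.075 for *Nfkb2*, 0.51 for *Relb*, 1.22 for *Hlf*, 1.33 for *Mecom*, 0.20 for *Mycn*, 0.91 for *Procr*, 0.59 for *Meis1*, 0.26 for *Irf1*, 0.83 for *Ifitm1*, 0.18 for *Kit*, 0.50 for *Ly6a* and -0.078 for *Gata1*. With the replicate block they were -0.022 for *Nfkbid*, -0.57 for *Nfkbiz*, -0.94 for *Bcl3*, -0.16 for *Nfkbil1* and -0.87 for *Rel*, with the block and sex -1.09, -0.39, -0.069 and -0.68 for the last 4, and in the male samples only -0.55, -1.08, -0.54 and -0.95. Without the sex covariate they were -0.064 for *Nfkbid*, -0.27 for *Nfkbiz*, -1.25 for *Bcl3*, -0.30 for *Nfkbil1* and -1.02 for *Rel*. The edgeR version 4 form gave -0.018 for *Nfkbiz*, -0.34 for *Bcl3* and -0.17 for *Rel*, library size only -0.062 for *Nfkbiz* and -0.0086 for *Nfkbil1*, DESeq2 -0.0068 and RLE -0.007315 for *Nfkbiz*.

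Leaving out 1 sample at a time moved *Nfkbib* from -0.075 to 0.68, *Nfkbid* from -0.033 to 0.32, *Nfkbiz* from -0.93 to 0.58, *Bcl3* from -1.06 to 1.48, *Nfkbil1* from -0.53 to 0.70, *Nfkb1* from -0.61 to 0.23, *Nfkb2* from -0.40 to 0.10, *Rel* from -0.94 to 1.96, *Relb* from -1.55 to 0.51, *Hlf* from -2.01 to 1.22, *Mecom* from -2.10 to 1.32, *Mycn* from -2.31 to 0.20, *Procr* from -2.41 to 0.91, *Meis1* from -1.46 to 0.59, *Irf1* from -1.59 to 0.26, *Ifitm1* from -2.25 to 0.82, *Kit* from -0.50 to 0.18, *Ly6a* from -2.53 to 0.50 and *Gata1* from -0.084 to 2.07. Without HET1, 14 of the named genes turned sign. Of 46 list medians, 23 changed sign or became 0 without HET1, 11 without WT3, 9 without HET2 and 4 to 6 without any other sample. The common biological coefficient of variation was 0.486 in the fit with sex and genotype.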
